A study of Mus musculus with 6 samples.

Results

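The genes described here are 40 genes of the sebaceous gland and of fatty acid synthesis, chosen by symbol out of 19618 genes in a count table from tail skin keratinocytes. Of these, 16 are taken as sebocyte genes, which mark the lipid-producing cells of the sebaceous gland, and 24 as general lipid genes, which many cell types use. The division is by known biology, and several sebocyte genes are also used elsewhere in the epidermis. All 40 genes passed the filter on low counts and were tested.

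The 6 libraries came from keratinocytes of mice aged 4 months, with 3 libraries per genotype. The epidermal knockout mice carried K14cre and were homozygous for floxed Gpr161. The keratin 14 promoter is active in the basal cells of the epidermis and its appendages, so only cells of that lineage lose the gene. The controls carried no K14cre per the labels: 1 was homozygous for floxed Gpr161 and the others were heterozygous. No treatment is named, and no sex or litter is given. The labels do not say that the libraries of a genotype came from separate mice, so the p-values measure the spread between these libraries. Libraries are called by the tag in their column name: the knockout has DE679, DE685 and DE688, and the control has DE680, DE684 and DE689.

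Sebocytes make fatty acids from acetyl-CoA, lengthen and desaturate them, and join them to glycerol, to fatty alcohols or to cholesterol. The resulting triglycerides, wax esters and cholesteryl esters fill lipid droplets, and the cell bursts to release them as sebum. The nuclear receptor Pparg drives sebocyte differentiation, and Hedgehog signalling, which Gpr161 is known to restrain, acts on sebaceous progenitors. Other keratinocytes run the same first steps of fatty acid synthesis for the lipids of the skin barrier.

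Total estimated counts ranged from 17157864 (DE685) to 25344399 (DE689) per library, and the 40 genes held 1.60% to 1.85% of them. Basal and suprabasal keratinocyte markers were abundant in every library, with summed levels of 25769 to 33215 CPM and 18234 to 34555 CPM. CPM stands for counts scaled to library size, with the TMM factor of each library. The log2 fold change of Gpr161 itself was −0.13 (edgeR adjusted p 0.553), so its whole-gene count does not check the genotype labels. Y-linked transcripts were found in DE685 of the knockout and DE684 of the control, with 3311 and 5291 counts of Ddx3y, Eif2s3y, Kdm5d and Uty together. The other 4 libraries had at most 3 such counts. Several members differed between these libraries and the others, as described after the genotypes.

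Levels per gene length showed which of the 40 genes were most abundant in the cell preparation, and do not tell which cells made them. Scd1, the desaturase that makes monounsaturated fatty acids in sebocytes, was highest of the 40 at 1061 CPM per kilobase of exon (mean of 6 libraries). The elongase Elovl6 followed at 338, the fatty acid 2-hydroxylase Fa2h at 308 and Elovl4, an elongase of very long chains, at 301 CPM per kilobase. Elovl6 was above Elovl4 in all 6 libraries, while Fa2h ranged from 220 to 481 CPM per kilobase, with the ranges of both elongases inside that, so its place among them is not resolved. At the low end stood Fabp4, a fatty acid carrier of fat and endothelial cells, at 0.230 CPM per kilobase, and the droplet protein Plin5 at 1.44. Summed over the 16 sebocyte genes, the level was 8954 ± 941 CPM for knockout and 9221 ± 394 CPM for control libraries (SD, 3 libraries each). Over the 24 general lipid genes it was 7621 ± 614 and 8310 ± 99.5 CPM. Scd1 held 4925 to 5864 CPM of the sebocyte sum. Without Scd1 that sum was 3387 to 4556 CPM in the knockout and 3751 to 4280 CPM in the control.

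The comparison of genotypes asks whether these genes differ when Gpr161 is deleted from the epidermis. Dgat2, the enzyme of the last step of triglyceride synthesis, was the single member past the threshold, which was 0.05 for the adjusted p of edgeR's quasi-likelihood test, and it was lower in the knockout. That is 1 of 40 members, or 2.50%, where 1.60% of all 15422 tested genes passed, 0.357% lower and 1.24% higher. Without adjustment 8 members had a p under 0.05, or 20%, beside 19.0% of all genes. In edgeR 0 of the 24 general lipid genes passed, with 5 at an unadjusted p under 0.05, and 1 passed in DESeq2. The count rested on the tool: the DESeq2 Wald test also called Mgst1 lower and Plin3 higher, 3 members in all, where it called 5.88% of all genes.

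The median absolute log2 fold change was 0.061 for the sebocyte genes and 0.14 for the general lipid genes, beside 0.15 for all tested genes. Signed medians were −0.021 and −0.073, beside −0.0036 for all genes. Of the 40 genes, 15 had a positive and 25 a negative fold change, beside 7608 and 7814 of the 15422 tested genes. For 22 of the 40 the 95% interval of the log2 fold change lay within 0.5 of no change on either side. These were 10 sebocyte and 12 general genes, beside 8293 of the 15422 tested genes. All libraries of 1 genotype lay above all of the other for 8 of 40 members (20%), beside 25.6% of all tested genes, 12.8% in each direction. The 5 with all knockout libraries below all controls were Dgat2, Mgst1, Soat1, Elovl6 and Acaca, and the 3 with all above were Plin3, Acsl3 and Far1.

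**Figure D1:**
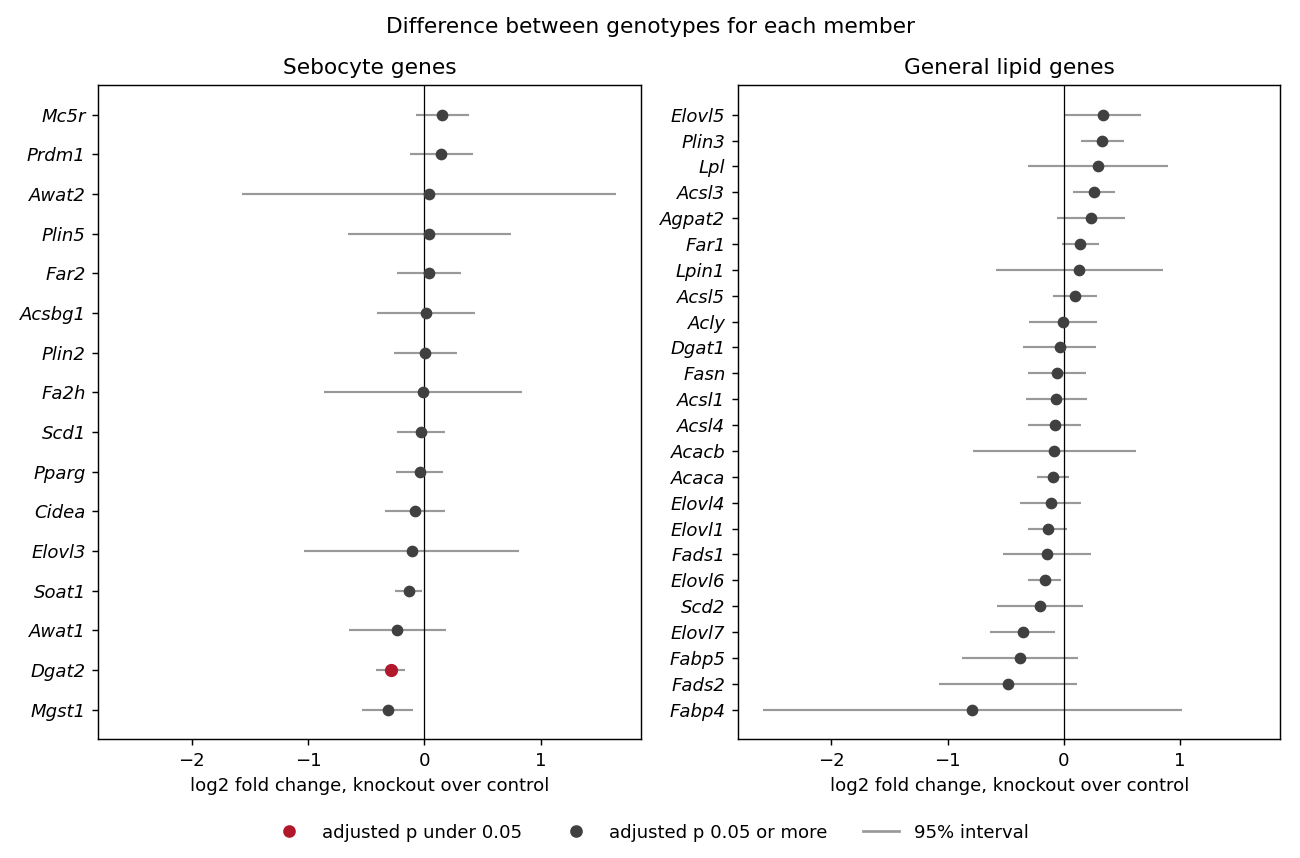
Log2 fold change of knockout over control (horizontal axis) for the 16 sebocyte genes and the 24 general lipid genes, with 95% intervals from the edgeR fit of 6 libraries. Dgat2, in red, has an adjusted p under 0.05, and the widest intervals are those of Fabp4, Awat2, Elovl3, Fa2h and Lpin1.

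The 3 regulators and receptors of the sebocyte did not pass the test. Pparg (chromosome 6, 115360951 to 115490399, plus strand, GRCm38) had 27.0, 28.1 and 24.2 CPM in DE679, DE685 and DE688, and 29.0, 26.5 and 25.9 CPM in DE680, DE684 and DE689. The ranges overlapped, and the log2 fold change was −0.04 (edgeR adjusted p 0.844, SE 0.088, 95% interval −0.24 to 0.16). Mc5r, the melanocortin receptor through which sebaceous secretion is stimulated, had 99.1, 125 and 96.2 CPM in the knockout, against 94.9, 94.9 and 97.5 CPM in the control. DE685 stood above the rest, and the log2 fold change was 0.16 (edgeR adjusted p 0.431, SE 0.10), or 0.03 without DE685. Prdm1, a transcriptional repressor of sebaceous and granular layer cells, had a log2 fold change of 0.15 with an adjusted p of 0.531 in the edgeR test.

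Among the enzymes that assemble triglycerides, Dgat2 (chromosome 7, 99153658 to 99182719, minus strand) had 227, 229 and 228 CPM in the knockout libraries. In the control it had 267, 285 and 282 CPM. All knockout libraries were below all controls, and they lay closer together than the controls did, 228 ± 0.924 against 278 ± 9.62 CPM (SD, n = 3 each). This is a log2 fold change of −0.29 (edgeR adjusted p 0.0469, SE 0.053, 95% interval −0.41 to −0.16), a ratio of 0.819. In bulk RNA, fewer sebocytes and less transcript per cell cannot be told apart. Of the suprabasal keratinocyte markers all 7 had a negative log2 fold change (median −0.28), as had 7814 of the 15422 tested genes, 0 passed in edgeR, and Krtdap (−0.28), Lor (−0.29) and Sbsn (−0.17) had an unadjusted p under 0.05 and groups apart. Their part in the Dgat2 value was not tested. Leaving out any 1 of the 6 libraries lost the call, with adjusted p from 0.0735 to 0.195, and the log2 fold change stayed between −0.32 and −0.27. Dgat1, which catalyses the same step, had a log2 fold change of −0.04 with an edgeR adjusted p of 0.910. Agpat2, an acyltransferase earlier in the path, had 31.5 ± 4.61 against 26.8 ± 2.74 CPM, a log2 fold change of 0.23 (edgeR adjusted p 0.353, SE 0.13). Exons of Agpat2 overlap those of Egfl7 on the opposite strand, and whether counting used the strand is not stated, so its value is uncertain.

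Genes of wax ester and cholesteryl ester formation did not pass the test in edgeR. Awat1, which esterifies fatty alcohols, had 54.7, 63.3 and 47.8 CPM in the knockout, against 82.7, 50.2 and 61.6 CPM in the control, with a log2 fold change of −0.23 (edgeR adjusted p 0.521, SE 0.18). For Awat1 it was −0.02 without DE680 and −0.49 in the 4 libraries without Y-linked transcripts. Awat2, a second wax ester synthase (chromosome X, 100402221 to 100442717, minus strand), had a fold change near 0 and a wide spread, 19.8 ± 13.1 against 19.4 ± 13 CPM (SD, n = 3 each). Its log2 fold change was 0.04, with a 95% interval from −1.56 to 1.65. Soat1, which esterifies cholesterol, is named after its values were seen. It had 238, 236 and 230 CPM in the knockout, against 257, 261 and 255 CPM in the control. The groups were apart but close, with a log2 fold change of −0.13 (edgeR adjusted p 0.219, SE 0.051). Far1 and Far2, the reductases that supply fatty alcohols, had log2 fold changes of 0.14 and 0.04. Exons of Far1 overlap those of Far1os, and exons of Far2 those of Ergic2 and Far2os2, all on the opposite strand.

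Mgst1, a microsomal glutathione transferase that is abundant in sebocytes, had 339, 435 and 368 CPM in the knockout, against 454, 471 and 497 CPM in the control. All knockout libraries were below the controls. The log2 fold change of Mgst1 was −0.32 (edgeR adjusted p 0.148, SE 0.096, 95% interval −0.54 to −0.09), and it reached an adjusted p of 0.0335 only in the DESeq2 Wald test. Of the lipid droplet proteins, Plin3 had 100.5, 89.0 and 91.1 CPM in the knockout, against 81.5, 69.7 and 71.9 CPM in the control, all knockout libraries above the controls. Its log2 fold change was 0.33 (edgeR adjusted p 0.0954, SE 0.080, 95% interval 0.15 to 0.52), with an adjusted p of 0.0169 in DESeq2. Plin2, which coats droplets in sebocytes, Plin5 and Cidea, which enlarges droplets, had log2 fold changes of 0.0090, 0.04 and −0.08.

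The enzymes that make and desaturate fatty acids did not pass the test. Fasn, the fatty acid synthase (chromosome 11, 120805846 to 120824547, minus strand), had 1271, 1621 and 1330 CPM in the knockout, against 1338, 1480 and 1587 CPM in the control. The log2 fold change of Fasn was −0.06 (edgeR adjusted p 0.797, SE 0.11, 95% interval −0.31 to 0.19). The ranges overlapped for Fasn, as they did for Acly, which makes cytosolic acetyl-CoA (−0.0095). Acaca, the cytosolic acetyl-CoA carboxylase, had a log2 fold change of −0.09, and Acacb, its mitochondrial counterpart, −0.08. Of the 50-base words in Acaca transcripts, 30.4% also occur in transcripts of another gene, Gm5182 foremost, so its count is uncertain.

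Scd1 (chromosome 19, 44394455 to 44407879, minus strand) had 5001, 5477 and 4925 CPM in the knockout, against 4927, 4941 and 5864 CPM in the control. The ranges overlapped, and the log2 fold change was −0.03 (edgeR adjusted p 0.884, SE 0.088, 95% interval −0.24 to 0.17). Scd2, the desaturase paralog used by many tissues, had a log2 fold change of −0.21 with an adjusted p of 0.524 in the edgeR test. Of the 50-base words of Scd1 and Scd2, 4.56% and 3.97% are shared with other genes, mainly with each other and with Scd3 and Scd4. The low-level desaturases of polyunsaturated fatty acids were Fads1 and Fads2. Fads2 had 6.06, 5.72 and 7.43 CPM in the knockout, against 8.61, 12.3 and 6.07 CPM in the control, overlapping ranges with a log2 fold change of −0.48 (edgeR adjusted p 0.344, SE 0.26). For Fads2 it was −0.19 without DE684 and −0.12 in the 4 libraries without Y-linked transcripts.

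Elongases add carbons to fatty acids, and 0 of the 6 in the list passed the test in edgeR or DESeq2, with 3 at an unadjusted p under 0.05 in edgeR, where 19.0% of all genes were. Elovl5, which lengthens polyunsaturated chains, had 25.8, 33.2 and 25.7 CPM in the knockout, against 20.0, 26 and 20.9 CPM in the control. The log2 fold change of Elovl5 was 0.34 (edgeR adjusted p 0.250, SE 0.14). Elovl7, which lengthens long saturated chains, had 157, 133 and 140 CPM in the knockout, against 210, 151 and 191 CPM in the control, a log2 fold change of −0.36 (edgeR adjusted p 0.184, SE 0.12). The ranges of both genes overlapped between the genotypes. Elovl6, named after its values were seen, did not overlap, with 2050 ± 48.4 against 2302 ± 99.6 CPM (SD, n = 3 each), but its log2 fold change was −0.17 (edgeR adjusted p 0.206, SE 0.061). Exons of Elovl6 overlap those of Gm35986 on the opposite strand, and 3.98% of its 50-base words are shared with other genes. Elovl3, the sebaceous elongase (chromosome 19, 46131897 to 46135694, plus strand), had 131 ± 71.8 against 141 ± 60.4 CPM, a log2 fold change of −0.11 (edgeR adjusted p 0.912, SE 0.40). Exons of Elovl3 overlap those of Pitx3 on the opposite strand. Elovl1 and Elovl4 had log2 fold changes of −0.14 and −0.12.

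The acyl-CoA synthetases activate fatty acids for use. Acsl3, which sits on lipid droplets, had 29.0, 28.5 and 29.5 CPM in the knockout, against 25.9, 23.0 and 23.8 CPM in the control. The knockout libraries were all above the controls, with a log2 fold change of 0.26 (edgeR adjusted p 0.141, SE 0.077). Exons of Acsl3 overlap those of Utp14b on the same strand. Acsl1, Acsl4, Acsl5 and Acsbg1, the last grouped here with the sebocyte genes, had log2 fold changes from −0.08 to 0.09.

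Of the uptake and carrier proteins, Fabp5, the epidermal fatty acid binding protein (chromosome 3, 10012548 to 10016607, plus strand), had 574, 926 and 511 CPM in the knockout. In the control it had 748, 980 and 886 CPM. The ranges overlapped through DE685, and the log2 fold change was −0.38 (edgeR adjusted p 0.378, SE 0.21, 95% interval −0.88 to 0.12). Of its 50-base words, 5.48% are shared with other genes, among them Fabp5l2. Lpl, the lipoprotein lipase that releases fatty acids from blood lipoproteins, had 28.6, 54.4 and 39.4 CPM in the knockout, against 25.4, 43.4 and 31.0 CPM in the control. Its ranges overlapped, and the log2 fold change was 0.29 (edgeR adjusted p 0.578, SE 0.26), but 0.03 without DE685 and 0.53 without DE684. Fabp4 had 0.933, 0.173 and 1.13 CPM in the knockout, against 0.754, 0.439 and 2.78 CPM in the control, too few counts to place the genotypes apart (log2 fold change −0.79, SE 0.78, edgeR adjusted p 0.619). The adipocyte markers Plin1 and Lep were at most 0.233 and 0.444 CPM in any library, and the summed level of the 5 measured of 9 adipocyte markers was 15.9 to 28.7 CPM in the knockout and 16.2 to 28.8 CPM in the control. Plin4 supplied 12.4 to 26.4 CPM of that sum. Endothelial markers summed to 4.16 to 5.25 CPM in the knockout and 5.43 to 7.98 CPM in the control over 7 genes, and their part in the Lpl and Fabp4 values was not tested.

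**Figure D2:**
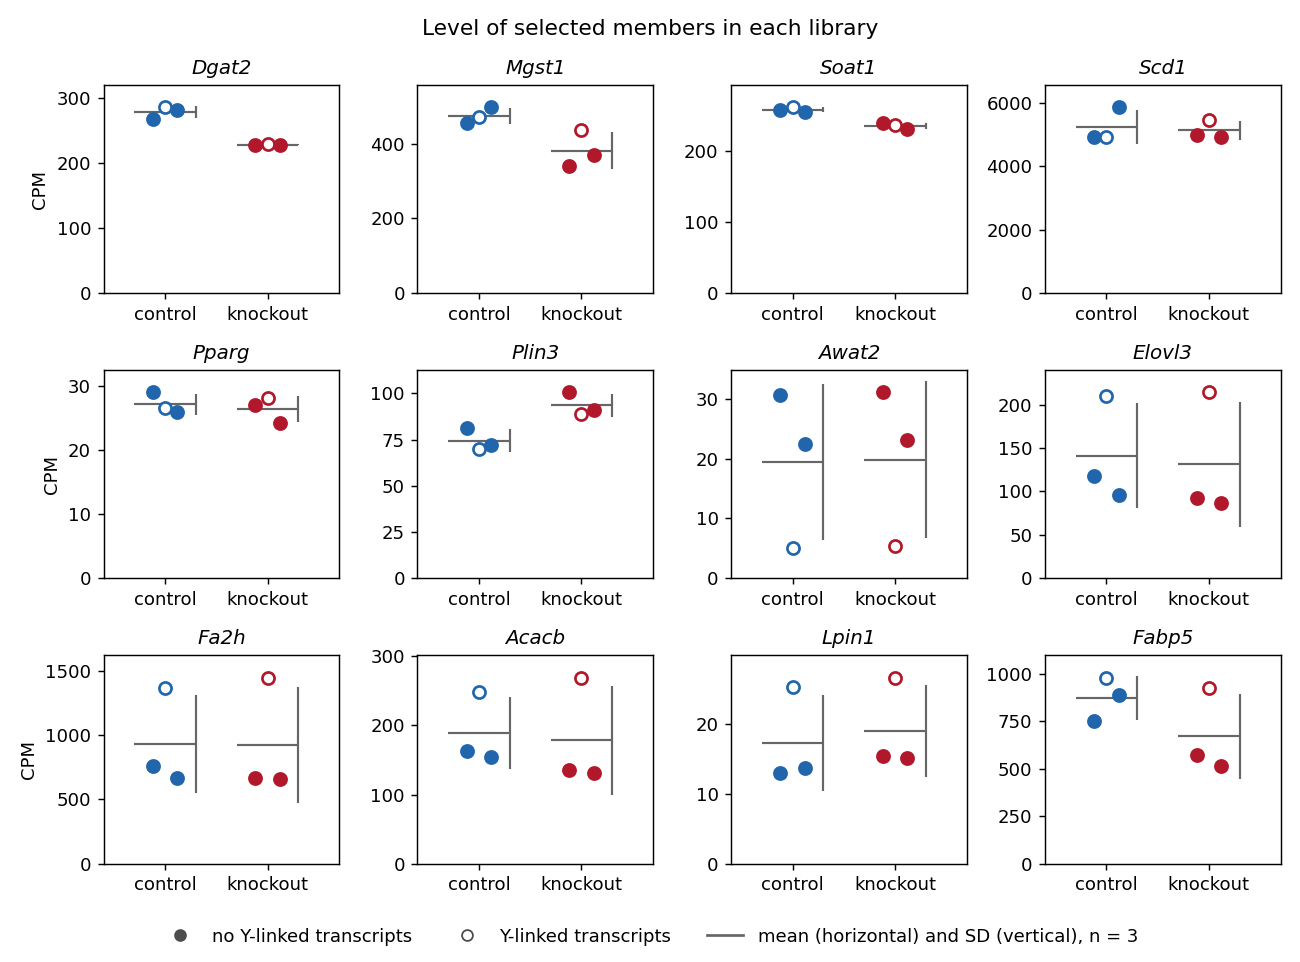
CPM (vertical axis, from 0) of 12 members in each of the 3 control and 3 knockout libraries, with the mean and SD of each group; open points are the libraries with Y-linked transcripts. For Dgat2, Mgst1, Soat1 and Plin3 the groups do not overlap, while for Awat2, Elovl3, Fa2h, Acacb and Lpin1 the open points stand apart from the other libraries of both genotypes.

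Several members with a wide spread differed with the presence of Y-linked transcripts. Awat2 was about 5 times lower in DE685 and DE684, and Elovl3 and Fa2h were about 2 times higher there, in both genotypes. These genes were named for this after their values were seen, apart from Awat2 and Elovl3. Awat2 had 5.37 CPM in DE685 against 31.0 and 23.0 CPM in the other knockout libraries, and 5.13 CPM in DE684 against 30.6 and 22.4 CPM in the other controls. The ratio of the mean of the other 4 libraries to that of these 2 was 5.10. Elovl3 had 214 CPM against 92.4 and 87.2 CPM in the knockout and 210 CPM against 118 and 96.0 CPM in the control. Fa2h (chromosome 8, 111345135 to 111393824, minus strand), whose hydroxylated fatty acids enter ceramides and sebum, had 1446 CPM against 666 and 661 CPM in the knockout and 1369 CPM against 756 and 668 CPM in the control. In each gene the libraries with Y-linked transcripts lay outside the range of the other 4.

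The same held for Acacb, with 269 CPM against 135 and 131 CPM in the knockout and 249 CPM against 163 and 154 CPM in the control. Lpin1, which makes diacylglycerol, had 26.7 CPM against 15.4 and 15.1 CPM in the knockout and 25.3 CPM against 13 and 13.8 CPM in the control. Both genes were higher with Y-linked transcripts. Acsbg1 and Scd2 were lower there, with mean levels 0.700 and 0.760 times those of the other libraries. In all, both libraries with Y-linked transcripts lay outside the range of the other 4 for 16 of 40 members, 10 above and 6 below. That is 40.0% of the members, beside 15% of all tested genes, and it covers 6 of 16 sebocyte and 10 of 24 general lipid genes. The 16 were Awat2, Fabp4, Acsbg1, Scd2, Plin2 and Acsl1 below, and Elovl3, Fa2h, Lpin1, Acacb, Lpl, Fabp5, Elovl5, Acly, Prdm1 and Acsl4 above. The difference by Y-linked transcripts, averaged within genotypes on the scale of log2(CPM + 0.5), was larger than the difference by genotype for 24 of 40 members (60.0%), beside 41.3% of all tested genes. It exceeded 1 for Awat2, Fabp4, Elovl3 and Fa2h, 4 of 40 members, where 1.55% of all tested genes did. No test was made of this difference, which rests on 1 library per genotype, and sex cannot be told apart from any other difference of those mice.

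**Figure D3:**
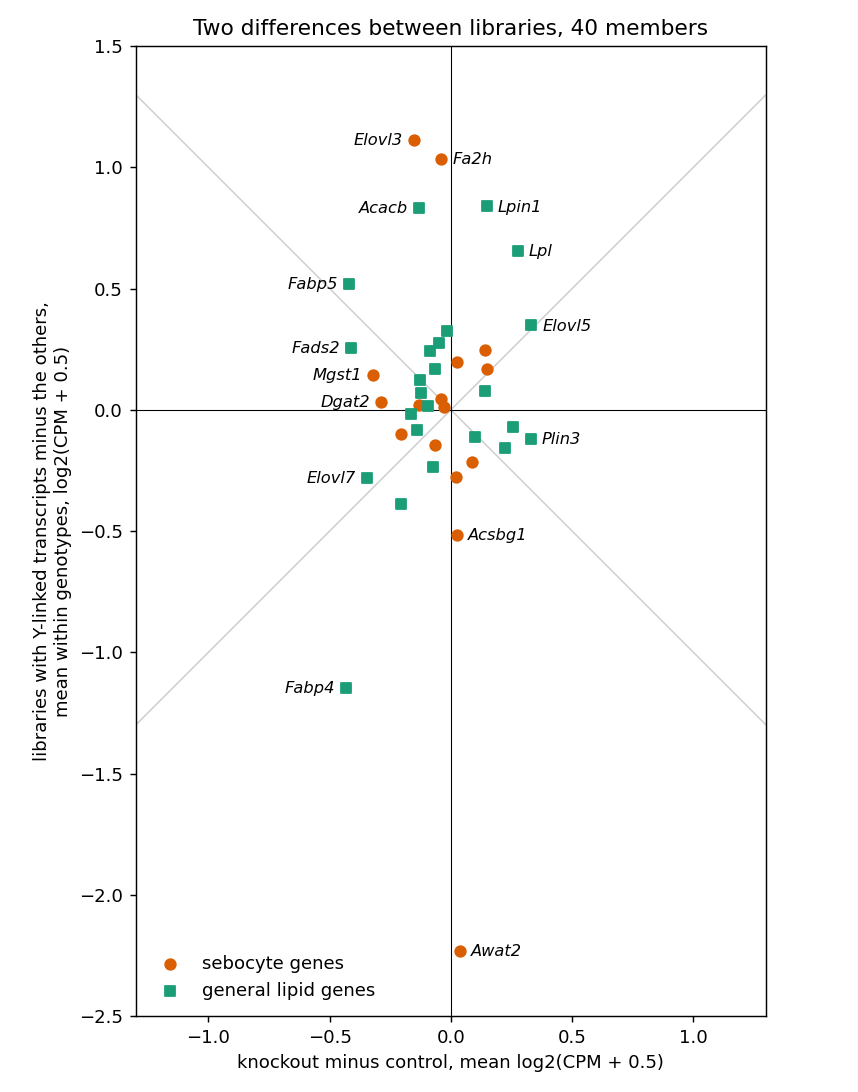
For each of the 40 members, knockout minus control (horizontal) and the libraries with Y-linked transcripts minus the others, averaged within genotypes (vertical), both as differences of mean log2(CPM + 0.5). Grey diagonals mark equal size; Awat2, at −2.23 on the vertical and 0.04 on the horizontal axis, lies farthest from them.

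Some markers of other cells also differed in these libraries. The summed suprabasal keratinocyte markers were 25493 and 34555 CPM in the libraries with Y-linked transcripts and 18234 to 24895 CPM in the others. Krt1 and Krt10 carried that sum, and Krt1 was the 1 of 7 suprabasal markers with both libraries outside the range of the other 4. Ivl, Sbsn and Krtdap went the other way, with differences of −0.19, −0.084 and −0.053 on the scale of log2(CPM + 0.5). The summed immune markers were 28.0 to 53.9 CPM against 76.2 to 125 CPM. Sums of the sebocyte genes overlapped, 9221 and 10034 against 8312 to 9614 CPM. Without Scd1 the sums did not overlap, 4280 and 4556 against 3387 to 3900.5 CPM. Fa2h held 1369 and 1446 against 661 to 756 CPM of them, and with Fa2h also taken out the sums overlapped. The part of cell composition in the member values was not tested.

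A fit with sex, read from the Y-linked genes, as a covariate gave smaller SE for Awat2, Elovl3, Fa2h and Acacb. These genes are shown because they split by Y-linked transcripts, so a covariate for that split lowers their SE by construction. The SE of the log2 fold change went from 0.69 to 0.16 for Awat2, from 0.40 to 0.096 for Elovl3, from 0.37 to 0.070 for Fa2h and from 0.30 to 0.083 for Acacb. Their log2 fold changes in that fit were 0.04, −0.16, −0.04 and −0.13. Dgat2 was again the single member past the threshold (edgeR adjusted p 0.0393), 1 of 40 where 2.65% of all genes passed. Plin3, Elovl5 and Elovl7 came closest, with edgeR adjusted p of 0.0624, 0.0638 and 0.0726. Among the 4 libraries without Y-linked transcripts, 0 members passed, where 0.557% of all genes did. In that fit Fabp5 had a log2 fold change of −0.59 (edgeR adjusted p 0.0955, SE 0.11) and Mgst1 −0.43 (edgeR adjusted p 0.105, SE 0.084). Awat2, Elovl3, Fa2h and Acacb had log2 fold changes of 0.03, −0.25, −0.10 and −0.26 there, with SE of 0.20, 0.11, 0.085 and 0.073.

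Proximal promoters of 3 members are shown for the patterns above: Awat2, lower with Y-linked transcripts, Elovl5, higher with them, and Soat1, with groups apart by genotype. Elovl5 met this narrowly, with 25.97 CPM in DE684 and 25.78 CPM in DE679. Soat1 did not pass the test (edgeR adjusted p 0.219). Each is the 250 bases before the RefSeq transcript start (GRCm38.p6), 5′ to 3′ on the gene's strand, with matches to the searched motifs in capitals, located at chrX:100442718-100442967 (minus), chr9:77917115-77917364 (plus) and chr1:156474329-156474578 (minus).
Awat2: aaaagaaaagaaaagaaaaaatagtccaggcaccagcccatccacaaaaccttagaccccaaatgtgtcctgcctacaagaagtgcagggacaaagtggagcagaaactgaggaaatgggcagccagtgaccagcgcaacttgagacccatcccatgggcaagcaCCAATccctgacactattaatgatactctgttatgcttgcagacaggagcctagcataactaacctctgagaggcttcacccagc
Elovl5: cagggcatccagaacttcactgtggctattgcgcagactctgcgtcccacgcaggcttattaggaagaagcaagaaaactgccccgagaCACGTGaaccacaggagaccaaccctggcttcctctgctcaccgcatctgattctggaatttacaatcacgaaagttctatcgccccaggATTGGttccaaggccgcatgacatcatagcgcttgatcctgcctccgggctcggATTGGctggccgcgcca
Soat1: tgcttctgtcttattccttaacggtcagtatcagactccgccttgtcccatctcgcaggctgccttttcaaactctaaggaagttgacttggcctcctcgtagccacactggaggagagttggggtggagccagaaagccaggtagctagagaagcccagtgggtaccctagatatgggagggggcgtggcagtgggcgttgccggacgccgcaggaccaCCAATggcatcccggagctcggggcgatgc

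The capitals in Awat2 and Soat1 are a CCAAT box, the letters CCAAT that the factor NF-Y is known to bind, and those in Elovl5 are an E-box, CACGTG, and CCAAT on the opposite strand. Promoter windows matched 28 of the 40 members, some with several starts. Scd1, Scd2, Elovl3, Mc5r, Cidea, Fa2h, Dgat1, Dgat2, Fads1, Lpl, Fabp4 and Fabp5 had no entry. On both strands, CCAAT was present for 16 of 28 member genes (57.1%), beside 37.5% of all 27025 genes with a window. The E-box was present for 1 of 28 (3.57%, beside 6.86%), and the sterol response element letters TCACNCCAC for Acsl1 alone (3.57%, beside 1.22%). The Gli motif TGGGTGGTC, the DR1 direct repeat that Pparg binds with its partner, and the palindromic androgen response element matched 0 of 28, beside 0.255%, 0.0407% and 0.0111% of all genes. None of these letter strings contains another. A match describes letters and not a bound site.

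Other genes of the pathway were taken from 5 lists of lipid genes and a list of duct and progenitor genes of the gland. Of 20 lipid transcription factors tested, 0 passed in edgeR and 3 had an unadjusted p under 0.05, beside 19.0% of all genes. Srebf1, the activator of fatty acid synthesis genes, had 452 ± 27.6 against 448 ± 47.5 CPM (SD, n = 3 each), or 0.01 as log2 fold change. Rxra, Cebpa and Srebf2, the other abundant members of that list, had log2 fold changes of 0.15, −0.11 and −0.10. Klf15 and Ppargc1a are named after their values were seen. Klf15 passed with the sex covariate and in DESeq2, with 12.1 ± 1.57 against 7.42 ± 1.26 CPM and a log2 fold change of 0.70 in the main fit. Ppargc1a passed with the sex covariate, with a log2 fold change of 2.38 in the main fit. It had 0.890, 0.751 and 0.856 CPM in the knockout, against 0.0887, 0.263 and 0.119 CPM in the control. These values are near the floor, as 3 counts are 0.117 to 0.173 CPM.

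Of 22 genes of fatty acid supply and elongation, 1 passed (4.55%) and was higher, where 1.24% of all genes passed and were higher. Acsf2, a mitochondrial acyl-CoA synthetase, had 28.6, 30.7 and 25.05 CPM in the knockout, against 16, 16.8 and 10.5 CPM in the control. Its groups were apart, with a log2 fold change of 0.96 (edgeR adjusted p 0.0466, SE 0.18). Slc27a1 and Acss1 of that list are named after their values were seen. Their log2 fold changes were 0.51 and 0.78 (edgeR adjusted p 0.0841 and 0.122). Slc27a1 passed with the sex covariate, in DESeq2 and without DE689, and Acss1 passed in DESeq2. In glycerolipid synthesis 0 of 12 passed in edgeR, in droplets and lipolysis 0 of 11, and in fatty acid oxidation 0 of 20. In each of these lists 1 or 2 genes had an unadjusted p under 0.05, beside 19.0% of all genes. The median log2 fold changes of these 3 lists were −0.051, 0.061 and 0.058. Gpam, the first acyltransferase of glycerolipid synthesis, had a log2 fold change of −0.05, the lipase Mgll 0.06 and the oxidation enzyme Hadha 0.18. Agpat5, of the glycerolipid list and named after its values were seen, was lower in the knockout, with 26.5 ± 1.75 against 34.6 ± 2.51 CPM. Its log2 fold change was −0.38 (edgeR adjusted p 0.0858), with groups apart, and it passed with the sex covariate and in DESeq2.

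In the list of duct and progenitor genes, all 9 tested genes had a positive log2 fold change, as had 7608 of the 15422 genes tested, with a median of 0.82. In edgeR 2 of the 9 passed and were higher, where 1.24% of all genes did. The list was chosen with earlier results of these data known, so its direction is not independent evidence. Plet1, a marker of the junctional zone next to the gland, had 109.7, 110.5 and 110.4 CPM in the knockout, against 63.8, 59.8 and 63.4 CPM in the control. All knockout libraries were above the controls, with a log2 fold change of 0.82 (edgeR adjusted p 0.00137, SE 0.054). Defb6, a defensin, had 265, 259 and 283 CPM in the knockout, against 176, 163 and 111 CPM in the control, a log2 fold change of 0.85 (edgeR adjusted p 0.0443, SE 0.15). Krt79, the keratin of the duct, did not pass, with 2174 ± 132 against 1848 ± 247 CPM and a log2 fold change of 0.23 (edgeR adjusted p 0.270, SE 0.10). Lrig1, a progenitor gene, had a log2 fold change of 0.61 (edgeR adjusted p 0.0973). Lgr6, another progenitor gene, and Gata6, a factor of duct cells, are named after their values were seen, with 1.49 and 0.89 (edgeR adjusted p 0.0556 and 0.0609). Both passed with the sex covariate and in DESeq2, and Lgr6 also in limma-voom, in limma on the authors' signal and without DE689. Plet1 passed in each fit that left out a library, Defb6 only without DE689, and Acsf2 in none of them. Fibroblast markers summed to 129 to 143 CPM in the knockout and 37.8 to 80.2 CPM in the control, of which Dcn held 112 to 123 and 20.8 to 40.6 CPM. Without Dcn the other 6 fibroblast markers summed to 15.4 to 19.2 CPM in the knockout and 12.7 to 39.6 CPM in the control, and Col1a1, Col1a2 and Col3a1 had log2 fold changes of −0.38, −0.42 and −0.54. Melanocyte markers summed to 79.2 to 117 and 54.0 to 78.9 CPM. Their part in these values was not tested.

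**Figure D4:**
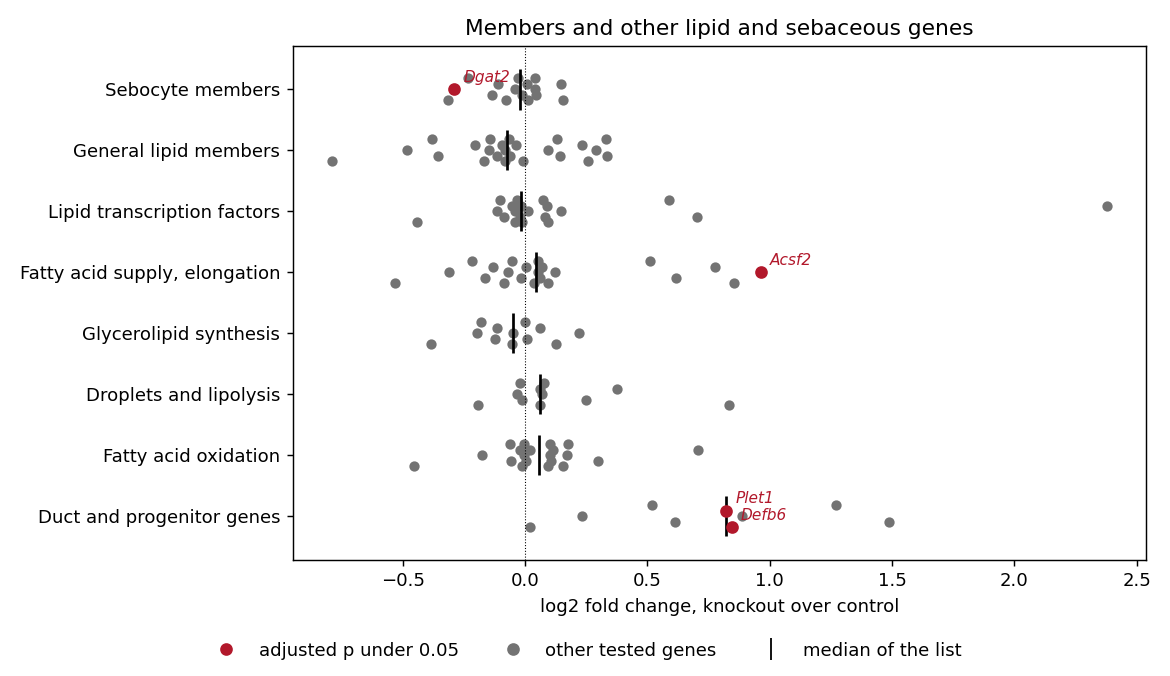
Log2 fold change of knockout over control (horizontal axis) for the tested genes of the 2 member sets and 6 further lists; each point is a gene, red points have an adjusted p under 0.05 and black bars are list medians. The lipid lists have medians from −0.073 to 0.061, and the duct and progenitor list has a median of 0.82.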

How the data were processed

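RNA sequencing of 6 libraries of tail keratinocytes was analysed from the deposited tables. The authors deposited estimated counts per gene, 53.0% to 57.7% of which were whole numbers in a library, and a normalized signal per gene; per the submitters' processing notes, bcl2fastq 2.20, cutadapt 1.18, STAR 2.7.0f and Partek were used with the build mm10. The counting method, its use of strand and the annotation are not given in the sources used here. Columns show only the genotype. Estimated counts were rounded, filtered with filterByExpr, scaled with TMM (factors 0.975 to 1.03) and fitted over 6 libraries and 15422 genes with glmQLFit and glmQLFTest of edgeR 4.0.16, genotype as the only term; the plan had assumed whole counts. Benjamini-Hochberg adjustment covered all genes tested. Each SE is the log2 fold change divided by the root of its F, and the 95% interval follows from it with the fit's degrees of freedom. Per-kilobase levels use merged GENCODE M21 exons; coordinates were equal to that annotation for 39 of 40 members, all but Lpin1. Pairs of libraries within a genotype had a chi-square of 12.2 to 39.9 per degree of freedom, so none was treated as a repeat deposit. Depth limits low genes: 3 counts are 0.117 to 0.173 CPM. Molecular identifiers are not mentioned, so this limit covers counting error only. An exact permutation test of 3 libraries against 3 reaches 0.1 at best (two-sided), so the model across genes was used.

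The fit was tested on simulated data. Members and lists were chosen with earlier results of these data known. The rule for named genes took members with an adjusted p under 0.05, the 12 largest fold changes with a mean of at least 1 CPM, and Pparg, Scd1, Fasn, Dgat2, Awat2, Mc5r, Elovl3 and Fabp5. From the other lists it took genes past the threshold and the most abundant ones. Alternatives were limma-voom (limma 3.58.1), DESeq2 1.42.0, other factors (RLE, upper-quartile), other filters (none, a mean of 1 CPM or more), limma on log2 of the deposited normalized signal plus 1, a sex covariate, the 4 libraries without Y-linked transcripts, and each library left out.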

Additional observations from a re-analysis of the deposited data

How the results depend on the processing

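Dgat2 was the single member past the threshold with RLE factors, a mean of at least 1 CPM, limma-voom, limma on the authors' signal and the sex covariate. With upper-quartile factors, with no filter and in the 4 libraries without Y-linked transcripts, 0 members passed; the Dgat2 log2 fold change there was −0.27, −0.29 and −0.27 (adjusted p 0.0597, 0.0552 and 0.160). DESeq2 called 3 members, 2 sebocyte (Dgat2 and Mgst1) and 1 general lipid gene (Plin3). Leaving out any 1 library gave 0 members, in fits with fewer libraries than the main fit. For these fits, and those with other factors, other filters or limma, the share of all genes that passed is not given here. The lost Dgat2 calls in them can therefore not be set beside that share. Of the other lipid and duct genes, 3 of 94 tested passed (Acsf2, Defb6 and Plet1), where 1.60% of all genes did. In DESeq2 it was 10 of 93, beside 5.88% of all genes, and with the sex covariate 10 of 94, beside 2.65%. Defb6, Gata6, Lgr6 and Plet1 in both fits, Lrig1 in DESeq2 and Cyp2g1 with the sex covariate belong to the duct and progenitor list. The lists were chosen with earlier results of these data known, so these shares are not independent evidence. In the 4 libraries without Y-linked transcripts 1 of 95 passed, beside 0.557% of all genes. With a library left out 1 to 4 passed, the 4 without DE689. Plet1 passed in all 16 fits. The cause of these changes was not tested.

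Of the named members, 6 turned sign when a library was left out, none of them past the threshold: 5 with a change near 0, and Fabp4, at −0.79 the largest of the 40. Scd1 ranged from −0.081 to 0.059 (positive without DE689), Fasn from −0.18 to 0.011 (positive without DE679), Pparg from −0.086 to 0.021 (0.0081 without DE680, 0.021 without DE688), and Fabp4 from −1.20 to 0.36 (positive without DE689). Elovl3 ranged from −0.65 to 0.29, with 0.095, 0.29 and 0.12 without DE679, DE684 and DE688, and Awat2 from −0.43 to 0.53, with −0.43, −0.41 and −0.08 without the same libraries. No paired analysis was possible because the columns carry no replicate numbers. Which control was homozygous for the floxed allele is not known from the columns, so it was not singled out.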

Other observations

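Some genes outside the 40 that handle the same lipids also stood apart in the 2 libraries with Y-linked transcripts, and all are named after their values were seen. Of 22 tested genes of fatty acid supply and elongation, 11 had both of these libraries outside the range of the other 4, beside 15% of all tested genes. That was the largest share among the lists. It was 5 of 20 lipid transcription factors, 4 of 12 genes of glycerolipid synthesis and 3 of 11 of droplets and lipolysis. For fatty acid oxidation it was 4 of 20, and for duct and progenitor genes 1 of 9. Cd36, a fatty acid transporter, had 67.5 CPM in DE685 against 32.7 and 31.3 CPM in the other knockout libraries, and 66.1 CPM in DE684 against 47.5 and 38.5 CPM in the other controls. Mgll, which cleaves monoglycerides, had 1373 CPM against 731 and 673 CPM in the knockout and 1136 CPM against 775 and 749 CPM in the control. Both genes were higher with Y-linked transcripts in each genotype.

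Scd3, a desaturase of the sebaceous gland, had 34.3 CPM against 10.8 and 10.6 CPM in the knockout and 28.6 CPM against 1.55 and 5.95 CPM in the control. Of its 50-base words, 6.54% are shared with other genes, first with Scd1, so its count is uncertain. Cyp2g1, a cytochrome P450, went the other way, with 2.43 CPM against 72.4 and 77.8 CPM in the knockout and 0.263 CPM against 24.9 and 38.2 CPM in the control. The genotype difference of Cyp2g1 had a log2 fold change of 1.27 (edgeR adjusted p 0.614, SE 1.24), and it passed the threshold with the sex covariate.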
